A study of Mus musculus with 16 samples.

Results

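The 8 genes described here encode the machinery that carries the light-sensitive current of rods and resets it: the channel subunits Cnga1 and Cngb1, the exchanger Slc24a1, the guanylate cyclases Gucy2e and Gucy2f, the cyclase activators Guca1a and Guca1b, and recoverin (Rcvrn). They were taken by name from a deposited table of 32166 genes and followed across 16 RNA-seq libraries of mouse retinal organoids. Of the 8, 7 had a level of at least 1 CPM (counts scaled to a common library size) in at least 2 libraries, as 15202 genes of the table did, and only those were tested. Guca1a did not pass and is given by its values. Because a gene that is high late and absent early can pass through its late libraries alone, the number that passed carries no weight of its own.

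In a rod in darkness, cyclic GMP holds open a channel of the outer segment membrane, through which sodium and calcium enter, and the exchanger pumps calcium back out. Light leads to the breakdown of cyclic GMP, the channel closes and calcium falls. The calcium-binding proteins of the Guca1 genes then switch on the membrane cyclases, which rebuild cyclic GMP, while recoverin releases the kinase that shuts off the light signal. Mutations in several of these genes are known causes of retinal dystrophy.

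Retinal organoids are three-dimensional cultures in which pluripotent stem cells form retinal tissue. The cells carried an Nrlp-GFP transgene, in which the promoter of the rod factor gene Nrl drives green fluorescent protein, and the GFP-positive cells were sorted and sequenced as polyadenylated RNA. The embryonic stem cell (ESC) libraries numbered 3 at day 18, 3 at day 21 and 1 each at days 25, 28 and 35 of differentiation. The induced pluripotent stem cell (iPSC) libraries numbered 2 at day 18, 1 at day 21, 2 at day 25 and 1 each at days 28 and 35. The genotype was Nrlp-GFP in every group. ESC came from the inner cell mass of blastocysts of the transgenic mice. iPSC were made from E14.5 embryonic fibroblasts of Nrl-GFP mice with doxycycline-inducible lentiviral Oct3/4, Sox2, Klf4 and c-Myc. Both sources entered a modified SFEBq differentiation at passages 15 to 25, were kept at 5% oxygen to day 10, and had retinoic acid until day 26, so that the day 28 and day 35 cells were the ones collected after its withdrawal. The promoter that drives the sort is active in newborn as well as maturing rods. Clones and cultures are not tied to libraries in the labels, so p-values measure the spread between these libraries, which may in part be technical.

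Library sizes recovered from the deposited tables ran from 4698979 to 27023474 estimated counts, so that 1 count was worth 0.213 CPM in the shallowest library and 0.037 CPM in the deepest. The rod gene Nrl was between 15.99 and 881 CPM at day 18 and at 556 and 1860 CPM at day 35. The libraries labelled ESC day 18 replicate 1 and iPSC day 18 replicate 1 stood apart, with Nrl at 17.7 and 15.99 CPM and the proliferation gene Mki67 at 406 and 462 CPM. Nrl was at 136 CPM or more in each of the other 14 libraries. The 9 markers of dividing progenitors summed to between 204 and 2341 CPM at day 18 and to between 43.1 and 312 CPM at day 35. The Y-linked gene Ddx3y was at 0.241 CPM in ESC day 18 replicate 1 and at 15.03 CPM or more in the other ESC libraries. In iPSC it was at 30.8 CPM in day 18 replicate 2 and at 8.60 CPM in day 25 replicate 1. The other iPSC libraries held at most 0.870 CPM. The ESC day 35 library also held the highest sums of bipolar cell markers (406 CPM) and of Müller glia markers (1134 CPM). In sorted cells measured in bulk, fewer rods in a sample and less RNA per rod cannot be told apart.

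In the GRCm38 annotation all 8 are protein-coding genes. Cnga1 lies at chr5:72603696-72644275 on the minus strand and shares its locus with the processed pseudogene Gm5297 on the same strand, so its estimate could take in reads of that copy. Cngb1 lies at chr8:95239045-95306585, Slc24a1 at chr9:64922861-64951607, Gucy2e at chr11:69218117-69237036 and Gucy2f at chrX:142081160-142196931, each on the minus strand. Guca1b (chr17:47385393-47392967, plus strand) and Guca1a (chr17:47394558-47400584, minus strand) are neighbours whose ends face each other across 1590 bases. Rcvrn (chr11:67695326-67703333, plus strand) overlaps Glp2r on the other strand, and it is not stated whether strand was used in the quantification.

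The RefSeq promoter table (GRCm38.p6) held 6 of the 8 genes, and Rcvrn and Guca1b were not among them. The 250 bases before each start were searched on both strands for TAATCC (reverse complement GGATTA), a core sequence bound by the photoreceptor factors Crx and Otx2, and for TGCTGA (reverse complement TCAGCA), a core sequence of the sites bound by Nrl. TAATCC or its reverse complement stood in 5 of the 6, against 6.25% of 32851 promoters of the same length, and TGCTGA in 0 of the 6, against 16.1%. A match of 6 letters is a description of the sequence and not a binding site. The windows of 100 bases that hold the matches are printed 5′ to 3′ on the strand of the gene, with the matches in capitals. Of these 5 genes, 4 rose over the days described next, and Guca1a was not tested. Slc24a1, the searched gene without a match, rose as well (4.45 at day 35 against day 18, limma adjusted p = 0.0133). Whether a match bears on a rise was not tested. The first 4 windows end at the base before the start, and the Cnga1 window spans bases 250 to 151 before it. By its coordinates the Cnga1 window lies inside the gene span given above, so the start used for Cnga1 is not the outermost annotated one.
Cngb1, chr8:95306586-95306685, minus strand: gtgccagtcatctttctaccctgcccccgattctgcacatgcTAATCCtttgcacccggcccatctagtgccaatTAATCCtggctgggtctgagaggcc
Gucy2e, chr11:69237023-69237122, minus strand: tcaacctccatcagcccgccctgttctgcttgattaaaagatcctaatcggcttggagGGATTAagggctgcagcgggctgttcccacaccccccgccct
Gucy2f, chrX:142196937-142197036, minus strand: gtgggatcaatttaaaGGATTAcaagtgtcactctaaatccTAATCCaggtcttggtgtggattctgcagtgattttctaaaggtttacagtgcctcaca
Guca1a, chr17:47400607-47400706, minus strand: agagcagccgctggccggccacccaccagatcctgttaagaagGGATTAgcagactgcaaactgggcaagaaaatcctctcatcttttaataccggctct
Cnga1, chr5:72642903-72643002, minus strand: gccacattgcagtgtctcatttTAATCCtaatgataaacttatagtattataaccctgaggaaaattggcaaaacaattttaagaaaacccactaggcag
Cngb1 and Gucy2f each held 2 matches, as 0.295% of all promoters did. In Cngb1 both lay on the gene's own strand, 58 to 53 and 25 to 20 bases before the start. In Gucy2f the pair lay on opposite strands, 84 to 79 and 59 to 54 bases before the start.

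The channel genes were near 0 in part of the earliest libraries and far above that in every late one. Cnga1 encodes the subunit that can form a channel by itself. At day 18 its levels were 0, 5.04 and 0.150 CPM in the ESC libraries and 0.0482 and 17.3 CPM in the iPSC libraries. At day 21 they were 4.83, 1.37 and 90.9 CPM in ESC and 5.16 CPM in iPSC. From day 25 the ESC levels were 43.5, 56.2 and 186 CPM at days 25, 28 and 35, and the iPSC levels were 26.2 and 234 CPM at day 25, 329 CPM at day 28 and 561 CPM at day 35. Every library of days 28 and 35 was above every day 18 library, while the day 21 libraries reached into both ranges.

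Cngb1 encodes the modulatory subunit of the rod channel. Its day 18 levels were 0.285, 8.40 and 0.941 CPM in ESC and 0.214 and 95.01 CPM in iPSC, and its day 21 levels were 26.5, 13.3 and 239 CPM in ESC and 35.1 CPM in iPSC. In ESC it then stood at 304, 307 and 233 CPM at days 25, 28 and 35, a range with no order by day. In iPSC it was at 166 and 484 CPM at day 25, 673 CPM at day 28 and 1066 CPM at day 35. Among the late libraries, the ESC pair was lower than both iPSC libraries for either subunit.

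Slc24a1, the rod exchanger that trades sodium and potassium for calcium, stayed low in ESC until the last day sampled. Day 18 levels were 1.07, 1.09 and 5.34 CPM in ESC and 0.699 and 9.05 CPM in iPSC, and day 21 levels were 9.44, 4.60 and 20.8 CPM in ESC and 2.12 CPM in iPSC. The ESC libraries of days 25, 28 and 35 held 6.78, 7.96 and 72.1 CPM, a 9.05-fold step in the last week. In iPSC the levels were 6.002 and 22.3 CPM at day 25, 41.7 CPM at day 28 and 78.6 CPM at day 35. The day 35 libraries of both sources were thus close to each other, and both were above the other 14 libraries.

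**Figure D1:**
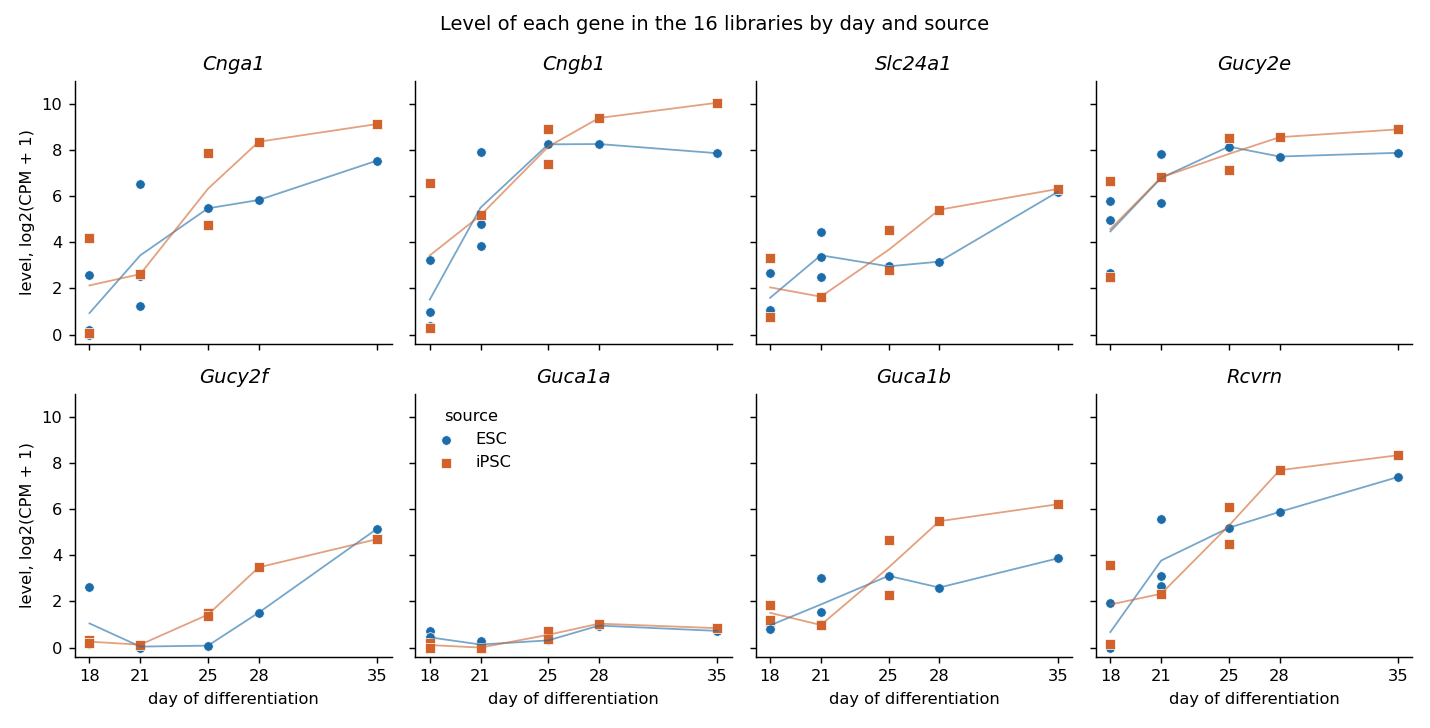
Level of each of the 8 genes on the log2(CPM + 1) scale (vertical axis) by day of differentiation (horizontal axis), with 1 point per library (circles ESC, squares iPSC) and lines through the mean of each source and day. Gucy2e is at 4.56 CPM or more in every library, Gucy2f is at 1.83 CPM or less through day 25 apart from 1 day 18 library, and Guca1a never exceeds 1.05 CPM.

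The cyclase genes differed most in timing. Gucy2e, which encodes the membrane cyclase shared by rods and cones, was present from the start. Its day 18 levels were 5.28, 54.2 and 30.7 CPM in ESC and 4.56 and 101 CPM in iPSC, and its day 21 levels were 52.0, 114 and 226 CPM in ESC and 112 CPM in iPSC. At days 25, 28 and 35 it was at 284, 210 and 235 CPM in ESC, and in iPSC at 142 and 365 CPM, 377 CPM and 478 CPM. The ESC day 21 replicate 3 library already held 95.8% of the ESC day 35 level, and for Cngb1 it held 103%. Nrl was at 1915 CPM in that library and at 556 CPM in the ESC day 35 library.

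Gucy2f, which encodes the other photoreceptor membrane cyclase, was low or undetected through day 25, apart from 1 library. At day 18 it was at 0.123, 5.27 and 0.253 CPM in ESC and at 0.243 and 0.147 CPM in iPSC. At day 21 it was at 0.0927, 0 and 0 CPM in ESC and 0.0910 CPM in iPSC; in the libraries at 0, a count of 0 allows up to 0.268 and 0.310 CPM (3 counts, for counting error only). At day 25 it was at 0.0601 CPM in ESC and at 1.83 and 1.57 CPM in iPSC. The later levels were 1.86 and 34.7 CPM in ESC and 10.2 and 25.1 CPM in iPSC at days 28 and 35, so every late library was above every library of days 21 and 25, by a narrow margin for ESC day 28. One early library, ESC day 18 replicate 2, was above the ESC day 28 library.

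Of the calcium-sensing activators of the cyclases, Guca1b climbed while Guca1a stayed near the limit of detection. Guca1b was at 1.12, 0.986 and 0.764 CPM in ESC and 1.26 and 2.58 CPM in iPSC at day 18, and at 1.96, 1.03 and 7.14 CPM in ESC and 0.972 CPM in iPSC at day 21. In ESC it was at 7.65, 5.08 and 13.6 CPM at days 25, 28 and 35. In iPSC it was at 3.87 and 24.3 CPM at day 25, 43.8 CPM at day 28 and 73.4 CPM at day 35. At day 35 the iPSC library was thus well above the ESC library, with 1 library of each source.

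Guca1a, its neighbour on chromosome 17, stayed between 0 and 1.05 CPM, on 0 to 12.8 estimated counts. The ESC levels were 0.122, 0.629 and 0.377 CPM at day 18, 0.0905, 0 and 0.207 CPM at day 21, and 0.241, 0.937 and 0.651 CPM at days 25, 28 and 35. The iPSC levels were 0.162 and 0 CPM at day 18, 0 CPM at day 21, 0.654 and 0.303 CPM at day 25, 1.05 CPM at day 28 and 0.792 CPM at day 35. The late libraries lay between 0.651 and 1.05 CPM and the middle ones between 0 and 0.654 CPM, so the ranges touched. At 12.8 counts or fewer per library, differences of this size were at the limit of the depth.

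Rcvrn, recoverin, is the calcium sensor that restrains the kinase of the shutoff step. At day 18 it was at 0.0621, 0 and 2.83 CPM in ESC and at 0.123 and 10.9 CPM in iPSC, and at day 21 it was at 5.33, 7.57 and 46.4 CPM in ESC and 4.04 CPM in iPSC. In ESC it was at 35.7, 58.3 and 168 CPM at days 25, 28 and 35, and in iPSC at 21.4 and 67.3 CPM at day 25, 206 CPM at day 28 and 324 CPM at day 35. No day 28 or day 35 library overlapped the day 18 range.

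The comparison of day 35 with day 18 asked what changed over the whole span sampled. All 7 tested members were higher at day 35, by 3.78 to 6.83 on the log2(CPM + 1) scale, with limma adjusted p between 0.00414 and 0.0321. Among all 15202 genes, 4.54% were called higher, 2.99% lower and 7.53% in either direction in that comparison. The largest differences were those of Cnga1 (6.83, SE 1.38, limma adjusted p = 0.0158), Rcvrn (6.67, SE 1.00, limma adjusted p = 0.00414) and Cngb1 (6.58, SE 1.42, limma adjusted p = 0.0196). The exchanger rose by 4.45 (SE 0.87) and Gucy2f by 4.18 (SE 0.67). Gucy2e, the member already present at day 18, rose by 3.86 (SE 0.97), and Guca1b by 3.78 (SE 0.78). The median over the 7 was 4.45, beside 0.05 over all genes tested. Both day 35 libraries were above all 5 day 18 libraries for all 7, as they were for 10.9% of genes. For 5 of the 7 (not Slc24a1 or Gucy2f) the day 28 libraries were above them too, as for 5.25% of genes. The scale understates the change of genes that were low at day 18.

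Day 35 rests on 1 library per source, and the count of calls moved with them. Without the ESC day 35 library, limma called 3 of 7 (Guca1b, Gucy2f and Rcvrn), beside 2.75% of all genes called higher, and without the iPSC day 35 library 2 of 7 (Gucy2f and Rcvrn), beside 1.62%. With the 2 day 18 libraries of low Nrl left out, limma called Gucy2f and Rcvrn, beside 0.721%. Gucy2e alone also lost its call without ESC day 18 replicate 1 (3.41, limma adjusted p = 0.0604) or iPSC day 18 replicate 1 (3.18, limma adjusted p = 0.0620), or without the filter on low values (3.86, limma adjusted p = 0.0638). On counts rebuilt from the tables, edgeR called 4 of 7 (Cnga1, Guca1b, Rcvrn and Slc24a1) and DESeq2 the 4 for which it was not missing (Guca1b, Gucy2e, Gucy2f and Slc24a1). Over all 15202 genes edgeR called 639 higher and 375 lower, and DESeq2 1193 higher and 1270 lower. Progenitor marker sums ran lower at day 35, in the ranges given for the libraries, and their part in these differences was not tested.

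By day 28 the same 7 genes had positive differences from day 18, of 1.75 to 6.45, but only Rcvrn was called (5.59, SE 1.00, limma adjusted p = 0.0405), beside 0.507% of all genes called higher (0.0724% lower, 0.579% in either direction). Cngb1 had a larger difference with a wider error (6.45, SE 1.42, limma adjusted p = 0.0579). Cnga1 stood at 5.59 (limma adjusted p = 0.0795), Gucy2e at 3.60 (0.0943), Guca1b at 2.78 (0.102), Slc24a1 at 2.49 (0.144) and Gucy2f at 1.75 (0.166). The Rcvrn call was lost without the filter on low values (5.59, limma adjusted p = 0.0679) and, with differences of 4.85 to 6.37, without ESC day 18 replicate 1 (limma adjusted p = 0.0863) or 3 (0.0618), ESC day 21 replicate 1 (0.0546) or 2 (0.0657), ESC day 25 (0.0566), ESC day 28 (0.164), iPSC day 18 replicate 1 (0.0992), iPSC day 21 (0.0568), iPSC day 25 replicate 2 (0.0553) or iPSC day 28 (0.638). Cngb1 and Rcvrn were called together without ESC day 18 replicate 2 (3 calls, with Gucy2f), ESC day 21 replicate 3 (3 calls, with Cnga1) or iPSC day 18 replicate 2 (4 calls, with Cnga1 and Gucy2e). In those fits limma called 167, 126 and 452 genes higher and 94, 26 and 87 lower, of 15054, 15187 and 15198 tested.

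At day 25 limma called 0 of the 7 against day 18, beside 0.0395% of all genes, although 5 of 7 had an unadjusted p under 0.05. The differences were 5.63 for Cngb1, 4.38 for Cnga1, 3.98 for Rcvrn and 3.36 for Gucy2e, with limma adjusted p of 0.0823 to 0.0920. Gucy2f was at 0.19 (SE 0.59). The edgeR test called 0, and DESeq2 called Guca1b and Gucy2e, beside 873 genes called higher and 676 lower of 15202 by DESeq2. Without iPSC day 18 replicate 2 limma called 4 (Cnga1, Cngb1, Gucy2e and Rcvrn), beside 854 genes higher and 151 lower of 15198. Without iPSC day 25 replicate 1 limma called 2 (Cngb1 and Rcvrn), beside 300 genes higher and 56 lower of 15175. At day 21 limma called 0 of 7, beside 0.0% of all genes, with 3 of 7 at an unadjusted p under 0.05 (Cngb1 3.29, Rcvrn 2.34 and Gucy2e 2.32) and 0 calls by edgeR or DESeq2. Gucy2f differed from day 18 by -0.64 (SE 0.54). The Cngb1 difference at day 21 was 4.22 and called by limma without iPSC day 18 replicate 2, beside 218 genes called higher and 31 lower of 15198.

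**Figure D2:**
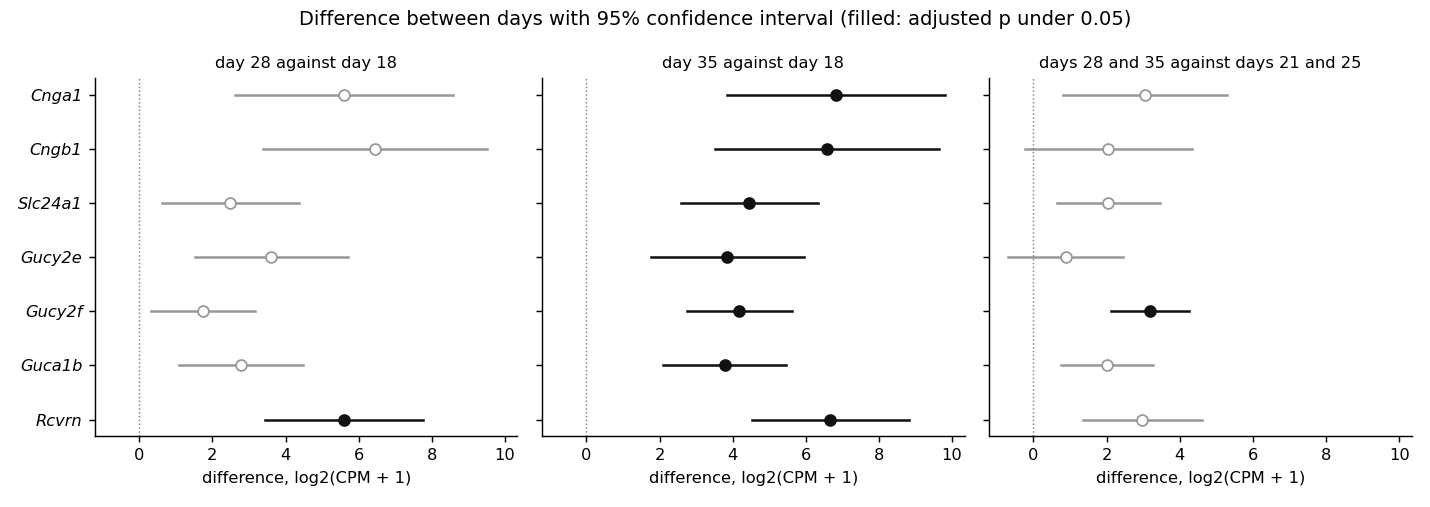
Differences on the log2(CPM + 1) scale (horizontal axis) with 95% confidence intervals for the 7 tested members in 3 comparisons, where filled black points have a limma adjusted p under 0.05 and open grey points do not. All 7 are filled for day 35 against day 18, Rcvrn alone for day 28 against day 18, and Gucy2f alone for days 28 and 35 against days 21 and 25.

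Days 28 and 35 were set against days 21 and 25 (4 late and 7 middle libraries) to ask what changed between the middle and the late days. Gucy2f was the 1 member called (3.18, SE 0.50, limma adjusted p = 0.0112), beside 0.691% of all genes called higher (0.776% lower, 1.47% in either direction). All 7 differences were positive, and 5 of 7 had an unadjusted limma p under 0.05. Gucy2f was also the 1 of 7 tested members whose late libraries were all above the middle ones, as 1.09% of genes were. The other differences were 3.04 for Cnga1 (limma adjusted p = 0.163), 2.98 for Rcvrn (0.0682), 2.05 for Cngb1 (0.365) and for Slc24a1 (0.138), 2.01 for Guca1b (0.106) and 0.89 for Gucy2e (0.608). The 95% intervals for Gucy2e (-0.69 to 2.46) and Cngb1 (-0.24 to 4.34) held 0, so that a rise or no change were both within them. Those for Cnga1 (0.81 to 5.28), Rcvrn (1.35 to 4.60), Guca1b (0.75 to 3.28) and Slc24a1 (0.64 to 3.45) lay above 0, without adjustment for the number of genes.

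The Gucy2f call was also made by edgeR (adjusted p = 0.0461) and DESeq2 (adjusted p = 0.000131), and limma lost it without the iPSC day 28 library (2.69, limma adjusted p = 0.0964). Rcvrn was called in addition without ESC day 21 replicate 3 (3.36, limma adjusted p = 0.0293) or iPSC day 18 replicate 2 (3.00, limma adjusted p = 0.0412), and Cnga1 without ESC day 21 replicate 3 (3.63, limma adjusted p = 0.0471). In those fits limma called 119 and 89 genes higher and 109 and 116 lower, of 15187 and 15198 tested. Cone marker sums were 101 to 688 CPM in the late and 333 to 1068 CPM in the middle libraries, progenitor sums were 43.1 to 413 and 90.9 to 668 CPM, and their part was not tested.

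Set against the day 35 library of the same source, the members stood at different shares of that level at day 28. In the iPSC day 28 library Gucy2e stood at 79.0% of its day 35 level, Rcvrn at 63.6%, Cngb1 at 63.1%, Guca1b at 59.6%, Cnga1 at 58.6%, Slc24a1 at 53.1% and Gucy2f at 40.5%. In the ESC day 28 library the spread was wider, from 132% for Cngb1 and 89.3% for Gucy2e through 37.3% for Guca1b, 34.7% for Rcvrn and 30.2% for Cnga1 to 11.05% for Slc24a1 and 5.35% for Gucy2f. In both sources Gucy2f was the lowest of the 7 by this measure at day 28, followed by Slc24a1. These are ratios of single libraries and carry no test. The ESC day 35 library, the reference for ESC, had less Nrl (556 CPM) than the ESC day 28 library (1067 CPM). It also had the highest sums of bipolar cell and Müller glia markers.

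**Figure D3:**
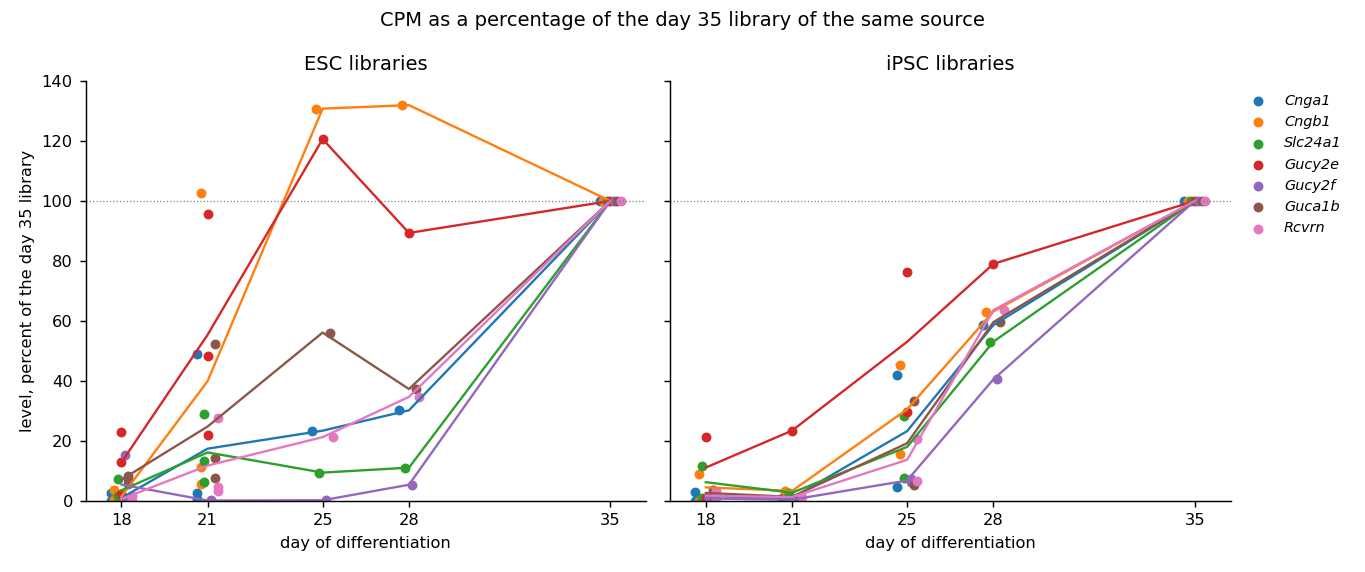
CPM of 7 members as a percentage of the day 35 library of the same source (vertical axis) by day (horizontal axis; points are shifted sideways to separate genes), with lines through the mean of each day and ESC and iPSC in separate panels. Gucy2e and Cngb1 run above the others in ESC from day 25, and Gucy2f is the lowest of the 7 at day 28 in both sources, at 5.35% and 40.5%.

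Ratios within pairs cancel what both genes share in a library only where both stand well above the 1 CPM added by the scale. Gucy2f did not in the middle libraries (at most 1.83 CPM), so there its pair largely follows Gucy2e. The ratios are not corrected for length, so only their change between days is read. Gucy2e exceeded Gucy2f by 6.83 ± 0.96 on the log2(CPM + 1) scale in the middle libraries (SD, n = 7) and by 4.55 ± 1.47 in the late ones (SD, n = 4), a difference of -2.28 with an exact two-sided permutation p of 0.0242 (0.0727 after Benjamini-Hochberg adjustment over the 3 pairs compared). Its size moved with the scale, to -1.16 on summed TPM (exact permutation, adjusted p = 0.103 over the 2 pairs with TPM) and to -4.31 with a pseudocount of 0.1 (adjusted p = 0.0364). In CPM, Gucy2e was 113 times Gucy2f in the ESC day 28 library and 6.78 times in the ESC day 35 library, and 37.1 and 19.0 times in the iPSC libraries of the same days. Cnga1 was below Cngb1 by 2.17 ± 0.68 in the middle and 1.18 ± 0.89 in the late libraries, a difference of 1.00 (exact permutation p = 0.0545, adjusted 0.0818). For Guca1a and Guca1b the difference was -1.54 (exact permutation p = 0.103, adjusted 0.103), and since Guca1a was near 0 CPM throughout, that ratio follows Guca1b. None of the 3 pairs passed after adjustment, with 0.00303 as the smallest p that the 330 splits allow. Without ESC day 28 the adjusted exact permutation p was 0.025, 0.025 and 0.0333 for the Gucy2e, Cnga1 and Guca1a pairs (differences of -2.83, 1.41 and -2.20), and without iPSC day 25 replicate 2 it was 0.0381 for each (-2.23, 1.18 and -1.90).

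Between the sources, with day in the model, limma called 0 of 7 members and 0.0% of all genes, with 0 of 7 at an unadjusted p under 0.05 and 0 called by edgeR or DESeq2. The iPSC estimates were higher by 0.21 (Gucy2f) to 1.01 (Cngb1), with a smallest limma adjusted p of 0.753. The Cngb1 interval ran from -0.91 to 2.92, so that differences of several fold lay within it at this number of libraries. Without the 2 day 18 libraries that stand apart in Ddx3y, limma also called 0 of 7. The estimates for Gucy2e, Slc24a1 and Rcvrn were then below 0 (-0.39, -0.13 and -0.058). The iPSC day 25 replicate 1 library, intermediate in Ddx3y, was kept in that fit. The slope with day did not pass between the sources either (0 of 7, beside 0.0% of all genes, with 0 at an unadjusted p under 0.05, 0 by edgeR or DESeq2 and a smallest limma adjusted p of 0.623).

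Levels of different genes can be compared only per length of transcript. On the CPM per kilobase scale Cngb1 was the highest of the 8 in the iPSC day 35 library (553), followed by Rcvrn (312), Cnga1 (213), Gucy2e (60.8), Guca1b (44.4), Slc24a1 (15.1), Gucy2f (3.09) and Guca1a (0.907). In the ESC day 35 library Rcvrn led (162), followed by Cngb1 (121), Cnga1 (70.7), Gucy2e (29.99), Slc24a1 (13.8), Guca1b (8.24), Gucy2f (4.28) and Guca1a (0.746). Gucy2f and Guca1a held the last pair of places in all of the libraries from day 21 on. With 1 library per source and day, neighbours in these orders, such as Guca1b and Slc24a1, changed places between the sources. The length used for Cngb1 is a mean of 1927 bases weighted by the estimated transcript levels, which short transcripts pull down, so its place depends on how reads were shared among its transcripts.

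The transcript table shows that sharing for Cngb1, whose locus also gives rise to glutamic acid-rich proteins without the channel. The transcript of the full channel subunit (Cngb1-202, 1325 residues) was estimated at 26.4 and 43.3 TPM (a level per transcript length, scaled to a common library total) in the ESC libraries of days 28 and 35, and at 65.7 and 122 TPM in the iPSC libraries. A short coding transcript (Cngb1-201, 326 residues; RefSeq lists Garp2 among the names of the gene) was estimated at 89.1 and 19.7 TPM in ESC and at 231 and 250 TPM in iPSC at the same days. The full transcript was thus 11.3 to 19.5% of the TPM of the gene in the 4 late libraries. The short one was 3.38, 3.51 and 2.06 times the full one in 3 late libraries and 0.456 times in the ESC day 35 library. An annotated transcript of 536 bases held 34.5% of the gene's TPM over all libraries, and how reads are divided between such overlapping transcripts is an estimate.

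Against that full-length Cngb1 transcript, the transcripts that encode the whole Cnga1 protein (684 residues) were at 48.7 and 197 TPM in the ESC libraries of days 28 and 35 and at 291 and 519 TPM in the iPSC libraries. The ratio of Cnga1 to full-length Cngb1 was 1.84 in the ESC day 28 library and 4.54, 4.42 and 4.27 in ESC day 35, iPSC day 28 and iPSC day 35. On the gene level the order was the opposite, with Cngb1 above Cnga1 in CPM and per kilobase in these libraries. By summed TPM Cngb1 was also above Cnga1, but by little in the ESC day 35 library (222 and 209 TPM). Transcripts of Slc24a1, Guca1a and Rcvrn were not analysed here.

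**Figure D4:**
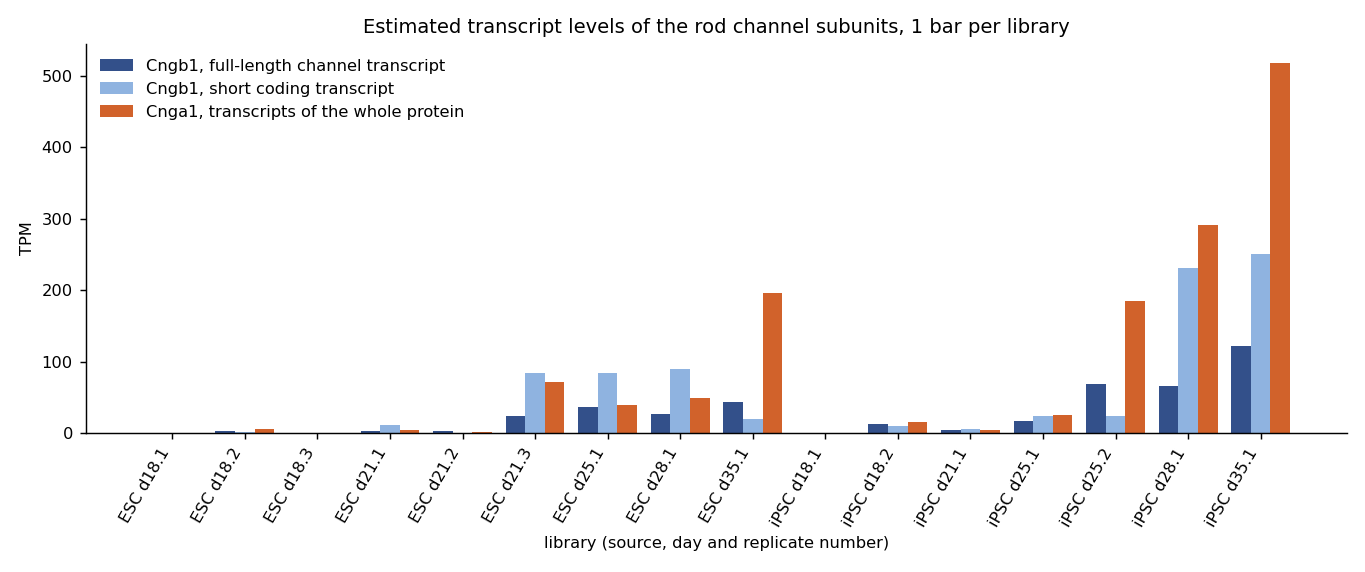
Estimated level in TPM (vertical axis, from 0) of the full-length Cngb1 transcript, the short coding Cngb1 transcript and the summed transcripts of the whole Cnga1 protein, with 1 bar of each per library (horizontal axis). In the 4 late libraries Cnga1 is 1.84 to 4.54 times full-length Cngb1, and the short transcript exceeds the full one in all of them but ESC day 35.

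Across the 16 libraries the members followed each other to different degrees. Pearson correlations on the log2(CPM + 1) scale were highest for Cnga1 with Cngb1 (0.956) and for Cngb1 with Gucy2e (0.945), and lowest for Gucy2f with Gucy2e (0.463) and with Cngb1 (0.495). All such points share a library, its day and its share of rods, so these values are descriptions. The plot of each gene against Nrl shows the same split: Gucy2e was lowest in the 2 libraries of lowest Nrl and above 100 CPM wherever Nrl exceeded 500 CPM, while Gucy2f was at 0 CPM in the ESC day 21 replicate 3 library, where Nrl was at 1915 CPM, and at 34.7 CPM in the ESC day 35 library, where Nrl was at 556 CPM.

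**Figure D5:**
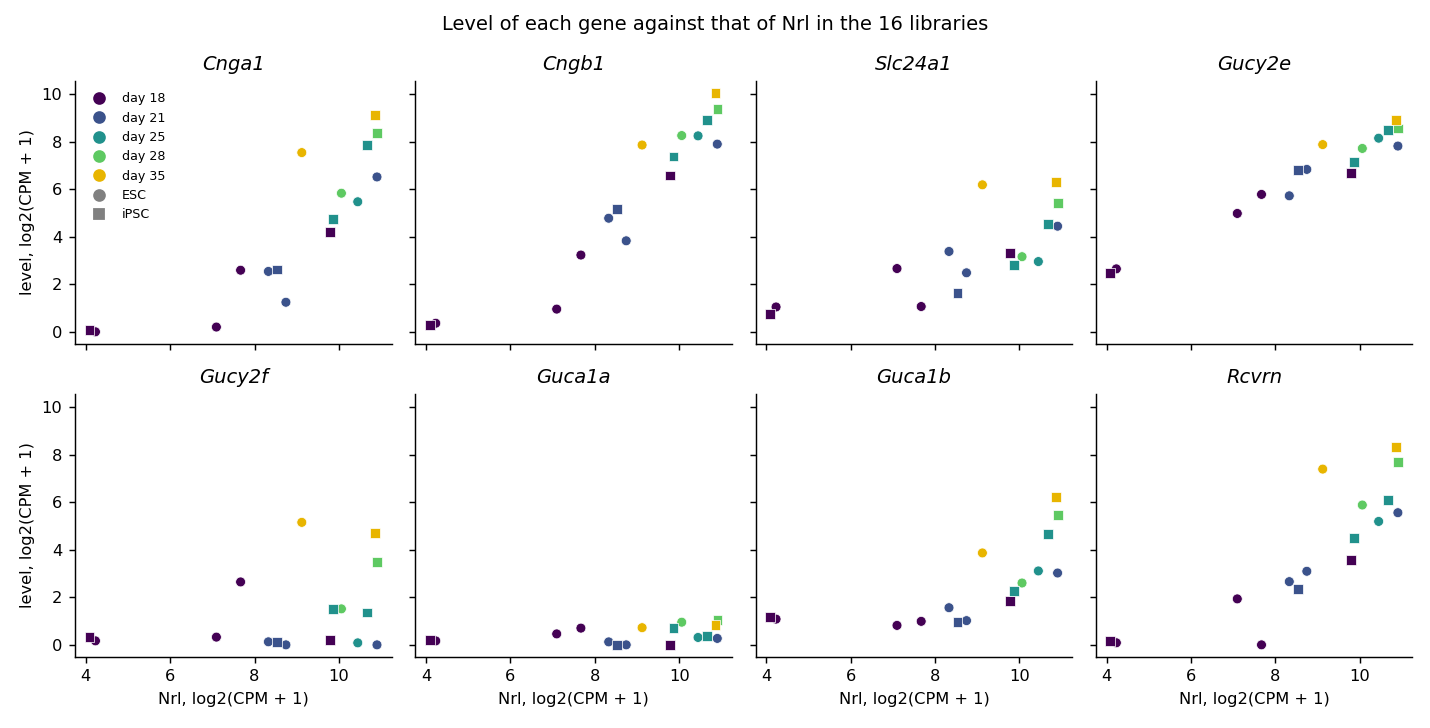
Level of each of the 8 genes (vertical axis) against that of Nrl (horizontal axis), both as log2(CPM + 1), with 1 point per library coloured by day (circles ESC, squares iPSC). Points of Gucy2e lie near 1 rising course, whereas for Gucy2f the late libraries stand above earlier ones of the same or higher Nrl.

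Genes whose pattern over the 16 libraries was most like the mean of the tested members were Cplx4 (Pearson r = 0.988), Pde6g (0.980), Nsf (0.979), Osbp2 (0.975), Rgs9 (0.975), Hk1 (0.975), Impg1 (0.975) and Rdh12 (0.974), out of 11034 genes with a mean of at least 5 CPM. Complexin 4 acts in transmitter release at photoreceptor synapses, and Pde6g is the inhibitory subunit of the rod phosphodiesterase. Among the 3 nearest to Cnga1 were Impg1 (0.987) and Cacnb2 (0.983), and among the 3 nearest to Cngb1 were Rom1 (0.992) and Bbs1 (0.978). For Slc24a1 they were Cabp4, Osbp2 and Aig1 (0.923 to 0.959), and for Gucy2e FRMPD2, Lrit1 and Lrit2 (0.988 to 0.991). Gucy2f was most like Optn (0.95), the nuclear receptor gene Esrrb (0.920) and Ndufaf5 (0.918). Guca1b was most like Stard7, Scamp5 and Gnb1 (0.965 to 0.970), and Rcvrn like Hs3st3b1, Osbp2 and Cplx4 (0.978 to 0.986).

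Of the other 13 rod phototransduction genes, 8 were called higher at day 35 than at day 18 by limma (median 4.13 over the list, 0.05 over all genes), among them the phosphodiesterase subunit Pde6a (6.76, SE 0.46, limma adjusted p = 1.54e-05). At day 28, 6 of the 13 were called, including Pde6g (6.14), and for late against middle days 3 of 13, among them Pde6a (3.62) and the rod transducin Gnat1 (3.05). Over all genes limma called 4.54% higher and 2.99% lower at day 35, and 0.507% and 0.0724% at day 28. For late against middle days the shares were 0.691% and 0.776%. These shares stand beside the counts of each list that follows as well. Of 10 genes for partners of the channel, exchanger and cyclases in the outer segment, 3 were called higher at day 35 (median 2.47), including the rim proteins Rom1 (5.00) and Prph2 (4.65). None was called in the later comparisons, where Prph2 differed by 4.52 at day 28 (limma adjusted p = 0.102) and by 1.24 for late against middle days (0.575), and Tulp1 by 3.08 (0.150) and 0.34 (0.890).

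Among 10 genes of the other ion machinery of rods, 4 were called higher at day 35 (median 2.33), including the synaptic calcium channel gene Cacna1f (5.03) and the potassium channel subunit Kcnv2 (4.70). Kcnv2 was the 1 called at day 28 (4.47, limma adjusted p = 0.0406) and 0 were called for late against middle days, where the sodium pump subunit Atp1b2 differed by 0.26. Of the 10 tested cone counterparts of 11 listed, 1 was called at day 35, the cone phosphodiesterase Pde6c, which fell by 3.71 (limma adjusted p = 0.00950) and for late against middle days by 3.37 (limma adjusted p = 0.00879). None was called at day 28, where Gnb3 differed by 1.74 and Gngt2 by 2.31. The median of the cone list was -0.19 at day 35.

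Of 10 tested paralogs of 14 listed, 2 were called higher at day 35, the exchangers Slc24a4 (2.33, limma adjusted p = 0.0414) and Slc24a5 (0.99, limma adjusted p = 0.0453), with a median of 0.22, beside the 4.54% of all genes called higher. None was called in the later comparisons, where Npr2 differed by -0.46 and -0.51 and Slc24a3 by -0.63 and -0.43. Among 10 other neuronal calcium sensors, relatives of recoverin, Hpcal4 was called at day 35 (1.89, limma adjusted p = 0.0391; list median 0.11) and 0 at day 28 or for late against middle days, where Ncs1 differed by -1.40 and -0.50 and Hpcal1 by -1.55 and -1.09. Without the filter on low values limma called 0 of either list at day 35. Leaving out 1 library gave 0 to 2 called genes on each list at that day. The count changed in 14 of 16 such fits for the paralogs and in 11 of 16 for the calcium sensors.

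Of 10 rod transcription factors, Esrrb was the 1 called at day 35 (4.16, SE 0.45, limma adjusted p = 0.000829; list median 1.402) and for late against middle days (2.80, limma adjusted p = 0.00431). Its mean levels were 0.808 CPM at day 18, 0.931 CPM at days 21 and 25 and 20.5 CPM at days 28 and 35. The late levels were 1.42 CPM at day 28 and 21.9 CPM at day 35 in ESC and 11.7 and 47.1 CPM in iPSC. The ESC day 28 library thus lay within the range of the middle libraries for Esrrb (0.347 to 2.00 CPM), and just above that range for Gucy2f (1.86 CPM, against at most 1.83 CPM). At day 28 none of the 10 was called, where Crx differed by 1.79 (limma adjusted p = 0.193) and Neurod1 by 1.43 (0.224).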

How the data were processed

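RNA of GFP-positive cells sorted from organoids was sequenced in 16 libraries made with a stranded mRNA kit, per the labels' protocols. The authors used Trimmomatic 0.36 for trimming and kallisto 0.42.5 for quantification, per the submitters' processing notes, and tximport and edgeR for gene values, scaled by transcript length and given as CPM, per the series design text. The deposited gene table holds a score from -1 to 198.2, the square of log2(CPM + 1) minus 1. Once back-transformed, 8489 of 8688 genes (97.7%) kept 1 ratio to the deposited TPM in every library (tolerance 0.001 in log2). The transcript files, deposited as estimated counts and as TPM, end at 65535 transcripts. GENCODE (GRCm38) names were found for 65096 of these (99.3%), and transcripts beyond that end were not analysed here.

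The members and gene lists were chosen with earlier results of these data known. Library sizes were rebuilt from the ratio of estimated counts to CPM and set the precision of low genes. Tests used limma 3.58.1 with trend (R 4.3.3) on log2(CPM + 1). A gene was tested if 2 or more libraries reached 1 CPM. The model held source and day as factors, or, for the slope comparison, source and a numeric day with their interaction. Calls had a Benjamini-Hochberg adjusted p under 0.05 over all 15202 genes. Ratios had exact permutation tests. The fits were checked on simulated data.

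Alternatives were edgeR 4.0.16 and DESeq2 1.42.0 on rebuilt counts rounded to whole numbers (adjusted p-values that DESeq2 leaves missing were kept missing), 3 other scalings, no filter, a filter of 5 CPM, a pseudocount of 0.1, a replicate block and each library left out. Chosen after seeing the data were 2 more: leaving out the day 18 pair with low Nrl, and leaving out another day 18 pair (ESC replicate 1 and iPSC replicate 2) in which each library differed from most of its source in Y-linked genes.

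Named genes are the 8 members. Of each other list they are up to 2 called members with the largest change for day 35, day 28 and late against middle days, or up to 2 of the highest mean CPM where none was called. For likeness they are the 8 genes most correlated with the mean of the tested members and 3 per member, with a mean of at least 5 CPM and without predicted gene models. A few genes that meet these criteria are not reported here. Motif searches and sequences used the RefSeq promoter table.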

Additional observations from a re-analysis of the deposited data

Results flagged for a closer look

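Over the 8 genes, 32 groups were screened for a library far from the others (the day 18, day 21, middle and late libraries of each gene), of which chance alone gives about 1 in 20, and 1 was found. It was Gucy2f at day 18, where the library labelled ESC replicate 2 was at 5.27 CPM and the other 4 libraries lay between 0.123 and 0.253 CPM. The value rests on 34.8 estimated counts. In the same library Rcvrn was at 0 CPM and Nrl at 203 CPM. It enters each comparison with day 18, and without it the Gucy2f difference at day 28 was 2.25 (limma adjusted p = 0.0352).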

How the results depend on the processing

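Counts of called members depended on the test and on single libraries. For day 35 against day 18 (7 of 7), edgeR gave 4, DESeq2 4 with 3 missing, no filter 6 (without Gucy2e), and removal of the low-Nrl pair 2, and leaving out 1 library gave 2 to 7. For day 28 (1 of 7), edgeR, no filter, a pseudocount of 0.1 and removal of the low-Nrl pair gave 0, DESeq2 and removal of the Y-linked pair 2, and leaving out 1 library 0 to 4. For day 25 (0 of 7), DESeq2 and removal of the Y-linked pair gave 2, and leaving out 1 library 0 to 4. For day 21 (0 of 7) leaving out 1 library gave 0 to 1. For late against middle days (1 of 7), DESeq2 gave 2 and leaving out 1 library 0 to 3. Calls over all genes moved in the same settings. For day 28 DESeq2 called 504 genes higher and 467 lower of 15202, and removal of the Y-linked pair gave 65 and 2 of 15162. In that comparison edgeR called 39 higher and 0 lower, and a pseudocount of 0.1 gave 49 and 12. Removal of the low-Nrl pair gave 1 and 0 of 15111, so that 0 of 7 there says little about the members. For day 25 removal of that pair gave 108 higher and 2 lower. For late against middle days DESeq2 gave 426 higher and 534 lower. A day left with 1 library is assumed to vary like the others. The cause was not tested.

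The labels do not say what a replicate number shares. Deviations from group means correlated at 2.37e-05 to 0.641 (median 0.249) over the 13 same-numbered pairs of libraries, which share libraries with each other, and at over 0.1 in 10 of the 13, beside 5 of 24 pairs of different numbers. In a group of 2 libraries the deviations are equal in size and opposite in sign. Many values for different numbers are therefore the negatives of same-numbered ones, and these counts are not independent of each other. Between ESC days 18 and 21 the values were 0.314, 0.0592 and 0.249, and 2 of the 3 day 18 libraries correlated best with their own number. Since not every pair exceeded 0.1, the numbers were not used as a pairing. With the replicate block the counts of called members were 7 for day 35, 6 for day 28, 6 for day 25 and 4 for late against middle days. Over all 15202 genes limma then called 1513 higher and 1430 lower for day 35, and 1260 and 1163 for day 28. For day 25 it called 1258 higher and 901 lower, and for late against middle days 192 and 207.

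With a pseudocount of 0.1 the Gucy2e and Gucy2f difference was -4.31 (exact permutation, adjusted p = 0.0364), and on summed TPM it was -1.16 (adjusted p = 0.103). The Guca1a and Guca1b difference was -0.57 with that pseudocount (exact permutation, adjusted p = 0.479). Leaving out 1 library gave 0.71 to 1.41 for Cnga1 and Cngb1, -2.83 to -1.67 for Gucy2e and Gucy2f and -2.20 to -0.96 for Guca1a and Guca1b.

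Of 1116 single-gene values, 1024 kept their direction and side of the threshold, 39 gained a call, 35 lost one and 18 changed sign, none of them a called value. The sign changes were Gucy2f at day 25 (-0.29 by DESeq2, -0.17 without the low-Nrl pair, -0.22 without the Y-linked pair, -0.036 to 0.73 without 1 library) and iPSC against ESC: Gucy2f (-0.10 by edgeR, -0.070 to 0.50 without 1 library), Gucy2e (-0.39 without the Y-linked pair, -0.24 to 0.75 without 1 library), Slc24a1 (-0.13, and -0.096 to 0.77) and Rcvrn (-0.058, and -0.0079 to 1.00). Without a filter Guca1a had adjusted p of 0.124 at day 35 and 0.0556 for late against middle days by limma. The 3 other scalings and the stricter filter changed 0 calls of members.

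Counts on the other lists moved as well, as did the counts over all genes in the same settings. Without a filter limma called 497 genes higher and 238 lower of 22860 at day 35, and 54 and 4 at day 28. Among the fits without 1 day 18 library, the genes called higher ran from 247 to 978 at day 35. At day 28 they ran from 4 to 452 in those fits. Without a filter limma called 1 of 13 rod phototransduction genes at day 28 (6 with it), 1 of 10 partners at day 35 (3 with it, Rom1 and Prph2 lost) and 0 genes of the other ion machinery at day 28 (1 with it). Leaving out 1 library gave 3 to 13 rod phototransduction genes at day 35 and 0 to 12 at day 28, 0 to 5 partners at day 35 and 0 to 7 genes of the other ion machinery at day 35.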
